A study of Mus musculus with 6 samples.

Results

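Genes of plasminogen activation and coagulation were examined in adrenal glands of a hypertensive (BPH) and a hypotensive (BPL) mouse strain. The members were Plat, Plau, Plaur, Serpine2, F3, F2r, Thbd and Tfpi, and every probe set whose only gene symbol in the platform annotation was one of these 8 was taken. Plat, Plau, Plaur, F3 and Tfpi had 1 such probe set each, Thbd had 2 and F2r had 3, so that 10 of the 12488 probe sets on the array and 7 of the 8 genes had values. Serpine2, an inhibitor of plasminogen activators and thrombin, had no probe set under this rule and was not analysed here. Of the 10 probe sets, 9 were bright enough on average to be tested, covering 6 genes, and the Plaur probe set was not.

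The BPH and BPL strains both descend from a selection experiment on blood pressure. The BPH group held 3 male BPH mice of 12 weeks and the BPL group 3 male BPL mice of 12 weeks, with no treatment given in the labels. The comparison is between these strains only, and no strain of normal blood pressure was analysed here. Total RNA of isolated glands was hybridised to 1 Affymetrix array per sample. Whether each array carried RNA of a single animal is not stated in the labels. The p-values therefore reflect only how these samples vary, which may in part be technical.

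Plasmin, the protease that dissolves fibrin, is cut from plasminogen by the tissue-type activator (Plat) or by urokinase (Plau), which is held at the cell surface by its receptor (Plaur). Coagulation starts when tissue factor (F3) binds factor VIIa, and it is restrained by the tissue factor pathway inhibitor (Tfpi) and by thrombomodulin (Thbd), which turns thrombin towards the activation of protein C. Thrombin also signals to cells through its receptor F2r. In the adrenal gland, chromaffin cells of the medulla are known to make the tissue-type activator and to store it in their catecholamine granules, and endothelium is a known site of Plat, Thbd and Tfpi.

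Plat was the only member that passed the test, and it was higher in BPH adrenals. Tfpi and 1 of the Thbd probe sets also had all BPH signals above all BPL signals, Plau had the opposite order, and none of these 3 passed. A probe set was called when its adjusted p, from limma with Benjamini-Hochberg adjustment over all 7453 tested probe sets, was under 0.05. This was the case for 1 of the 9 tested member probe sets, while 4.11% of all tested probe sets were called, 3.18% as higher and 0.926% as lower in BPH. The BPH and BPL signals did not overlap for 6 of the 9, higher in BPH for 4 and lower for 2, beside 27.6% of all tested probe sets, 19.7% higher and 7.97% lower. F2r is in both counts, with its probe set 95474_at higher and its probe set 95313_at lower in BPH. An unadjusted p under 0.05 was found for 3 of the 9 and for 20.6% of all.

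**Figure D1:**
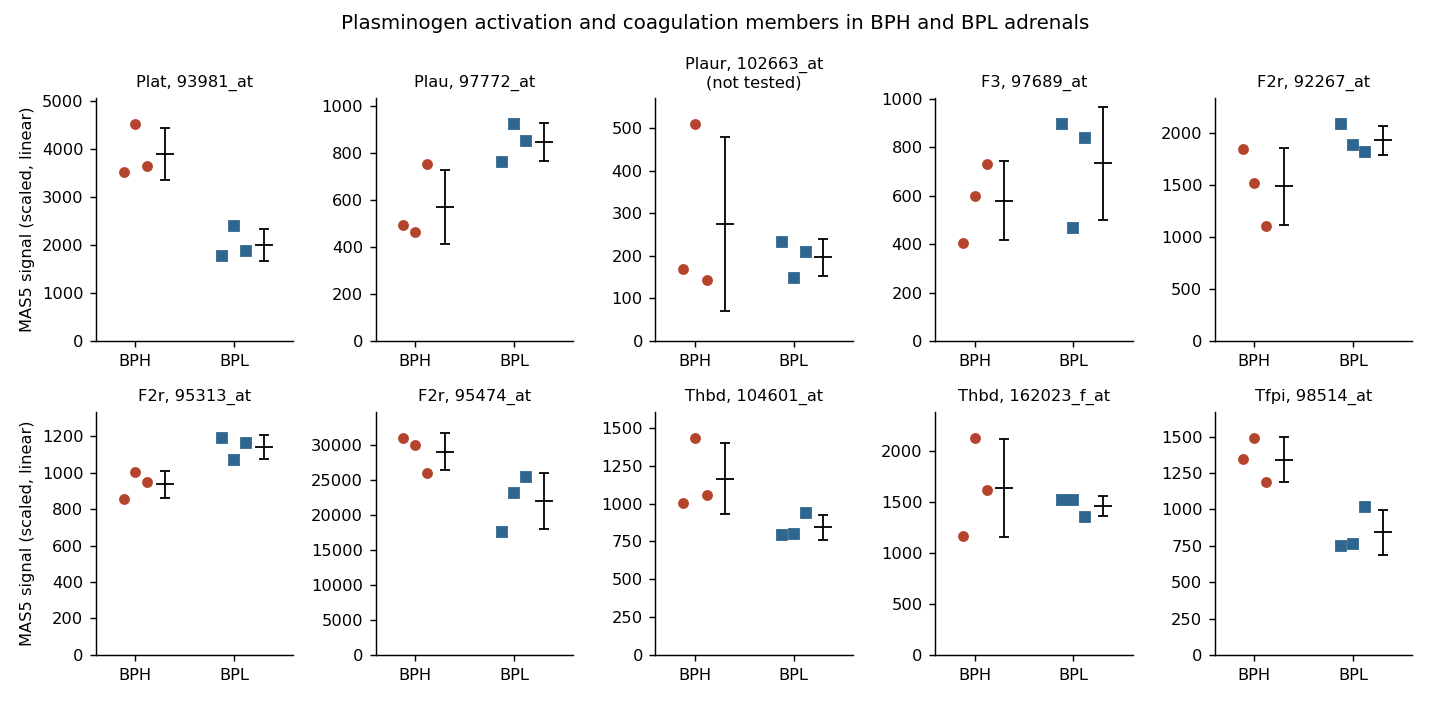
Signals of the 10 member probe sets in 3 BPH arrays (circles, left in each panel) and 3 BPL arrays (squares, right), with the mean and SD of each strain beside the points. The vertical axis is the MAS5 signal on a linear scale after scaling of the arrays to a common median, it starts at 0, and its range differs between panels. The Plat signals of BPH start at 3521, and those of BPL end at 2389.

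Promoter windows were taken from RefSeq (GRCm38.p6) for the members and for Procr, a related gene described below, since Fos, Fosb and Junb, genes of AP-1 subunits, were called higher in BPH. Each window runs from 250 bases before to 50 bases after the annotated start. The table held windows for 5 of the 8 members, Plaur, Serpine2, F3, F2r and Tfpi, and it held none for Plat, Plau and Thbd. The 4 windows below are those that hold the AP-1 motif TGANTCA, printed 5′ to 3′ on the gene's strand with the motif in capitals.

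F3 (GRCm38.p6, chr3:121723287-121723586, plus strand): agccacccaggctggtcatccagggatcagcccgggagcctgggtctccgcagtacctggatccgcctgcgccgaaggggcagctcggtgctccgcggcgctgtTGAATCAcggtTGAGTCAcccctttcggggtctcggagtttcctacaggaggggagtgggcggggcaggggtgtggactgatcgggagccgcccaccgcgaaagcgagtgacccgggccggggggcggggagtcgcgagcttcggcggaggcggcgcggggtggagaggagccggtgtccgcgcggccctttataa
F2r (GRCm38.p6, chr13:95618417-95618716, minus strand): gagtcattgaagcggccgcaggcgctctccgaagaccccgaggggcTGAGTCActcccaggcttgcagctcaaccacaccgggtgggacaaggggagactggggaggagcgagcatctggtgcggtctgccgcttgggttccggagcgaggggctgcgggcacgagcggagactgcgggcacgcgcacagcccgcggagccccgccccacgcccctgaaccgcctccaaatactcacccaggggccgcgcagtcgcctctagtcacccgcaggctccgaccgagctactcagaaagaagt
Plaur (GRCm38.p6, chr7:24462233-24462532, plus strand): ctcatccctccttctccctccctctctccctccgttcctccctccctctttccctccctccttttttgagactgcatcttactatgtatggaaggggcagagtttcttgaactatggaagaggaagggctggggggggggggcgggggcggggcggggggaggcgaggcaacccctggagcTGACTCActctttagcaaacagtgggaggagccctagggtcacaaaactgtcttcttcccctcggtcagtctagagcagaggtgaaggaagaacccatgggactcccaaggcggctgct
Procr (GRCm38.p6, chr2:155750967-155751266, plus strand): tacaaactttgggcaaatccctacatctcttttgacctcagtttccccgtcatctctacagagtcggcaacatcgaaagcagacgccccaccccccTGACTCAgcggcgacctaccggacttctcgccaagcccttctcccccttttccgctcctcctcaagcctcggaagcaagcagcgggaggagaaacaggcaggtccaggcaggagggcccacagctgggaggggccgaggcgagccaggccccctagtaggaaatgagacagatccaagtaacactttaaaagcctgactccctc

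The motif is its own reverse complement, so a match is on both strands at once, and 7.81% of the 32851 windows in the table held at least 1. F3 had matches at -146 and -135 relative to the start, F2r at -204, Plaur at -69 and Procr at -154 (first base of each). The single Serpine2 window and both Tfpi windows held none. The other motifs searched, on both strands, were the cyclic AMP response element TGACGTCA (1.79% of windows), the GC box GGGCGG (35.7%), the TATA box TATAAA (13.6%) and a loose NF-kB motif (20.7%). None of the member windows held TGACGTCA. The loose NF-kB motif was found in the windows of F3, Plaur and Procr and in 1 window of Tfpi. A match describes these letters only, and genes whose windows hold the AP-1 motif stood at different places in the comparison below.

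Among the activators, Plat had signals of 3521, 4523 and 3645 in BPH replicates 1, 2 and 3, against 1769.7, 2389 and 1870.0 in BPL replicates 1, 2 and 3. Every BPH array was above every BPL array, and replicate 2 was the highest in both strains. The means were 3896 ± 546 in BPH and 2009.6 ± 333 in BPL (SD, n = 3). The log2 difference, BPH minus BPL of log2(signal + 203), was 0.89 ± 0.18 (SE), with a 95% confidence interval of 0.49 to 1.30 and a limma adjusted p of 0.0299, a 1.86-fold higher level in BPH on that scale. In RNA of whole glands, a change in the number of cells of a type and a change in RNA per cell cannot be told apart. The call rested on all arrays but 1. With BPH replicate 1, 2 or 3 left out, the difference was 0.96, 0.79 and 0.93 with adjusted p of 0.0741, 0.125 and 0.0733, and without BPL replicate 1 or 3 it was 0.81 and 0.85 with adjusted p of 0.0850 and 0.0594. It stayed called without BPL replicate 2, at 1.01 (limma adjusted p = 0.0469).

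Urokinase, the other activator, had the opposite order. Plau had signals of 495, 463 and 754 in BPH, against 762, 925 and 853 in BPL. The groups did not overlap, but the highest BPH signal, in replicate 3, lay only just under the lowest BPL signal, in replicate 1. The means were 571 ± 159.5 in BPH and 847 ± 81.4 in BPL (SD, n = 3). The log2 difference of -0.46 ± 0.18 (SE), with a 95% interval of -0.87 to -0.04, did not pass after adjustment (limma adjusted p = 0.210).

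The urokinase receptor was dim. Plaur signals were 169, 510.2 and 144 in BPH, against 234, 149 and 209 in BPL. All but the signal of BPH replicate 2 lay between 144 and 234, and the groups overlapped. The mean of log2(signal + 203) over the arrays was 8.73, under the limit of 9.68 that left out the dimmest 40% of probe sets, so no test was made.

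Tissue factor, the starter of coagulation, did not differ beyond the spread between arrays. F3 signals were 405, 599 and 729.7 in BPH, against 896, 467 and 838 in BPL. The lowest signal was in a BPH array, and BPL replicate 2 lay below 2 of the BPH arrays. F3 was barely above the limit on dim probe sets, at a mean of 9.71 on the log2 scale, and was left untested where the limit was set on mean linear signal. Its log2 difference was -0.25 ± 0.24 (SE, limma adjusted p = 0.584), with an interval from -0.80 to 0.30. Single arrays moved it widely, to -0.081 with BPH replicate 1 left out and -0.39 with BPH replicate 3 left out. Of the BPL arrays, leaving out replicate 1, 2 or 3 gave -0.12, -0.48 and -0.16.

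The thrombin receptor F2r was read by 3 probe sets, which did not agree in direction. The probe set 95474_at had signals of 30959, 29977 and 25974 in BPH, against 17583, 23048 and 25328 in BPL. Its groups did not overlap, with the lowest BPH array close to the highest BPL array, and its log2 difference was 0.41 ± 0.18 (SE, limma adjusted p = 0.250). The probe set 92267_at had 1841, 1515 and 1100.4 in BPH, against 2086, 1886 and 1815 in BPL, where BPH replicate 1 lay within the BPL range. The probe set 95313_at had 856, 1004 and 952 in BPH, against 1191, 1069.6 and 1163 in BPL, with every BPH array below every BPL array. Their log2 differences were -0.36 ± 0.19 and -0.24 ± 0.15 (SE, limma adjusted p = 0.327 and 0.382). The average of the 3 probe sets gave -0.06 ± 0.14 (SE, limma adjusted p = 0.829), so that no direction can be given for F2r. Leaving out BPH replicate 3 moved 92267_at to -0.18, and leaving out BPL replicate 1 moved 95474_at to 0.26. The annotation gives all 3 the same symbol, and which transcript ends they read was not analysed here.

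Thrombomodulin, the thrombin cofactor on endothelium, was read by 2 probe sets. Thbd 104601_at had 1003, 1433 and 1054 in BPH, against 789.7, 798 and 937 in BPL. All BPH arrays were above all BPL arrays, and BPH replicate 2 stood highest. The log2 difference was 0.38 ± 0.17 (SE, 95% interval -0.02 to 0.77, limma adjusted p = 0.257), and 0.24 without BPH replicate 2. Thbd 162023_f_at had 1168, 2127 and 1617 in BPH, against 1517, 1521 and 1349 in BPL. Here the BPH arrays spread around the BPL arrays, with the lowest and the highest signal both in BPH, and the difference was 0.11 ± 0.21 (SE, limma adjusted p = 0.791). In Affymetrix names the suffix f marks a probe set whose probes can be shared by several transcripts, so its signal may not be of Thbd alone.

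The inhibitor of tissue factor came nearest to the threshold after Plat. Tfpi had signals of 1348, 1492 and 1186 in BPH, against 747, 761 and 1019.8 in BPL. Every BPH array was above every BPL array, with BPL replicate 3 the nearest to the BPH range. The means were 1342 ± 153 in BPH and 843 ± 153 in BPL (SD, n = 3), and the log2 difference was 0.57 ± 0.17 (SE, 95% interval 0.18 to 0.95, limma adjusted p = 0.113). Without BPL replicates 1 and 2 the difference of Tfpi was 0.33.

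**Figure D2:**
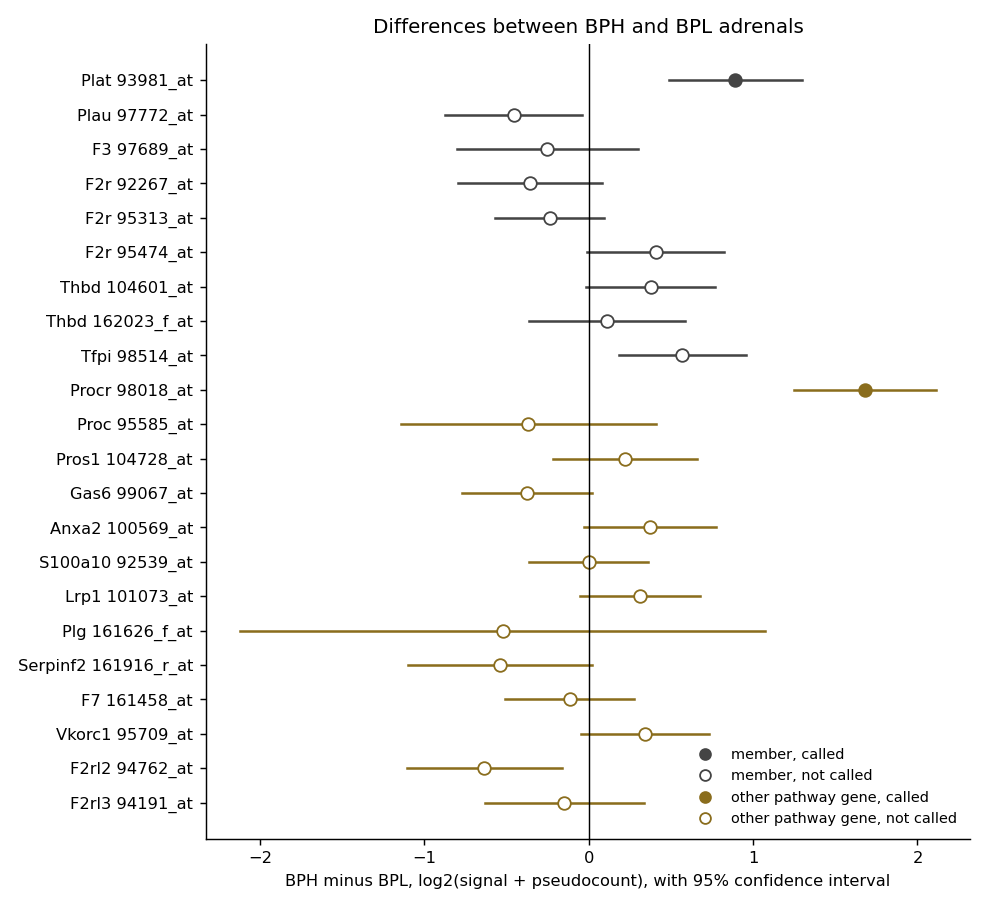
Log2 differences, BPH minus BPL, of the 9 tested member probe sets (dark) and of 13 other pathway genes (gold), with 95% confidence intervals from the limma model. Filled points passed the test, which were Plat at 0.89 and Procr at 1.68, and open points did not.

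Other genes of the pathway, outside the members, were taken from 5 lists. Of the 73 listed genes, 61 had a single-symbol probe set, and 34 of these were tested by the brightest probe set of each. One receptor gene, Procr, was called higher and 0 genes were called lower by limma, and 3 of the 34 had an unadjusted p under 0.05. Of all 5664 tested genes, 3.32% were called higher and 0.918% lower, and 20.5% had an unadjusted p under 0.05. The median log2 difference was 0.01 over the 34 genes and 0.09 over all tested genes. BPH and BPL signals did not overlap for 8 of the 34, beside 28.0% of all genes.

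Procr encodes the endothelial protein C receptor, which presents protein C to thrombin and thrombomodulin. Its signals were 8548, 11180.3 and 10382 in BPH, against 2441, 2988 and 3588 in BPL. The lowest BPH array was far above the highest BPL array, and the means were 10037 ± 1349.9 in BPH and 3006 ± 574 in BPL (SD, n = 3). The log2 difference was 1.68 ± 0.19 (SE, limma adjusted p = 0.00199), a 3.21-fold higher level in BPH. Leaving out any 1 array gave 1.55 to 1.81 with adjusted p from 0.00243 to 0.0141, and leaving out BPL replicates 1 and 2 together gave 1.42 (limma adjusted p = 0.0478). The other genes of protein C did not pass. Proc, protein C itself, had a difference of -0.37 ± 0.34, Pros1, its cofactor protein S, of 0.22 ± 0.19, and Gas6, a vitamin K dependent relative of protein S, of -0.37 ± 0.17 (SE, limma adjusted p = 0.567, 0.538 and 0.261). The list of 6 tested anticoagulant genes, which holds these 4, had 3 positive and 3 negative differences and a median of 0.00.

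In the plasminogen system, 0 of 7 tested genes were called by limma in either direction, with a median of -0.00 and a range from -0.54 to 0.37. Anxa2 and S100a10 form a cell surface complex that binds plasminogen and its activator, and their differences were 0.37 ± 0.18 and -0.00 ± 0.16 (SE, limma adjusted p = 0.271 and 1.0). A second S100a10 probe set gave -0.57 ± 0.35 (limma adjusted p = 0.385). Lrp1, a receptor that clears activator and inhibitor complexes, stood at 0.31 ± 0.16 (SE, limma adjusted p = 0.307), with all BPH arrays above all BPL arrays. Serpinf2, the inhibitor of plasmin, stood at -0.54 ± 0.25 (SE, limma adjusted p = 0.256), with all BPH arrays below all BPL arrays. The gap was narrow, with 3153 in BPH replicate 3 and 3188 in BPL replicate 3. The other Serpinf2 probe set was too dim to be tested, and its groups overlapped.

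With 1 array left out in turn, the medians of the other lists near 0 took either sign, from -0.09 to 0.038 for the coagulation factors, -0.12 to 0.11 for the anticoagulant genes and -0.10 to 0.033 for the thrombin receptor genes. The median of the plasminogen list took either sign too. It was -0.16 after quantile normalization, -0.21 with no limit on dim probe sets and 0.26 without BPL replicate 2, and no member of the list was called in these settings by limma. BPL replicate 2 also stood apart in transcripts of liver-made proteins. Plg, plasminogen, had signals of 822, 1189.8 and 3355 in BPH, against 993, 7622 and 1409 in BPL on the tested probe set. Fga, the alpha chain of fibrinogen, had 107, 463 and 1898 in BPH, against 645, 2475 and 442 in BPL. Both were highest in BPL replicate 2, and their next highest signal was in BPH replicate 3. Alb, serum albumin and a defining transcript of liver, followed the same order at 711, 451 and 4732 in BPH, against 323, 19442 and 1208 in BPL. Of the 5 tested liver markers, Ahsg, Apoa1 and Cps1 had this order too. The tested probe set of Apoa2 did not, and it was lowest in BPL replicate 2, at 373. A dimmer, untested Apoa2 probe set was highest there, at 2677. Tat and Ttr, too dim to be tested, were highest in BPL replicate 2 and next highest in BPH replicate 3. By limma 0 of the 5 tested liver markers were called. The part of liver RNA in the Plg and Fga signals was not tested. The log2 differences of Plg and Fga were -0.52 ± 0.70 and -0.59 ± 0.71 (SE, limma adjusted p = 0.703 and 0.673).

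Of 9 tested coagulation factors and cofactors, limma called 0, with a median of -0.03 and a range from -0.59 to 0.63. F7, the partner of tissue factor, stood at -0.11 ± 0.17 (SE, limma adjusted p = 0.742). Vkorc1, the vitamin K epoxide reductase needed to modify several factors, stood at 0.34 ± 0.17 and Ggcx, the carboxylase of the same cycle, at 0.63 ± 0.25 (SE, limma adjusted p = 0.292 and 0.205). The probe sets of F2 (prothrombin), F8 and Vwf were under the limit on dim probe sets and were not tested. F8 had 551, 380.3 and 252 in BPH, against 231, 302 and 362 in BPL, and the brighter Vwf probe set had 313, 509 and 976 in BPH, against 431, 874 and 571 in BPL. The groups overlapped for both genes.

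Among 7 tested thrombin receptor and signalling genes, which had a median of -0.03, limma called 0. The relatives of F2r on the list were F2rl2, at -0.63 ± 0.21, and F2rl3, at -0.15 ± 0.21 (SE, limma adjusted p = 0.140 and 0.725). F2rl2 had signals of 679, 504 and 407 in BPH, against 1173, 909.9 and 726 in BPL, and its groups did not overlap. F2rl1 had no single-symbol probe set and was not analysed here. Of the 5 tested plasmin substrates and matrix proteases, limma called 0. Their median was 0.15, but 0.036 with the authors' scaling, 0.034 after quantile normalization and 0.067 without BPL replicates 1 and 2. The differences ran from -0.35 to 0.36, with 4 positive and 1 negative. Timp3, a matrix-bound protease inhibitor, stood at 0.30 ± 0.17 (SE, limma adjusted p = 0.350).

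Adrenal markers were present in both strains, and several other lists differed between them alongside Plat and Procr. Each marker gene was counted by its brightest tested probe set. All 9 tested cortical markers had positive differences, with a median of 0.17, while 61.6% of all tested genes had a positive difference. By these probe sets limma called 0 of them. Star, the cholesterol carrier of steroid synthesis, was at 0.17 ± 0.17 (SE, limma adjusted p = 0.605). A dimmer probe set of the cortical marker Nr5a1 was called higher, at 1.24 ± 0.23 (SE, limma adjusted p = 0.0234). Of 9 tested chromaffin markers, 4 were called higher and 0 lower. Their mean log2 level was 13.81, 14.11 and 13.87 in BPH, against 12.95, 13.17 and 13.52 in BPL. Th, tyrosine hydroxylase of catecholamine synthesis, had a log2 difference of 1.28 ± 0.24 (SE, limma adjusted p = 0.0234). Ncam1 was called by its brightest probe set, at 0.77, while a dimmer tested probe set stood at -0.32 with overlapping groups. Plat was highest within BPH in replicate 2, as the chromaffin mean was, while within BPL the chromaffin mean was highest in replicate 3 and Plat in replicate 2. The part of the chromaffin markers in the Plat difference was not tested.

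The endothelial markers went both ways. Of 13 tested, limma called 0 in either direction, and 8 differences were positive and 5 negative, with a median of 0.06. BPH and BPL signals of the brightest probe sets did not overlap for 8 of the 13, beside 28.0% of all genes. Cdh5, Cldn5, Emcn, Eng and Tek were higher in BPH, and Sox17, Sox18 and Tie1 were lower. Dimmer tested probe sets of Emcn, Sox18 and Tie1 had overlapping groups. That of Tie1 stood at 0.14, against -0.72 for the brightest. The mean log2 level of the endothelial list was 11.23, 11.38 and 11.26 in BPH, against 10.98, 11.35 and 11.33 in BPL, so the strains overlapped. Cdh5, the cadherin of endothelial junctions, stood at 0.31 ± 0.17, and Pecam1, an adhesion molecule of endothelium, at 0.05 ± 0.34 (SE, limma adjusted p = 0.331 and 0.947). The differences of the 13 endothelial markers ran from -0.72 to 0.74. Their part in the differences of Plat, Procr, Thbd and Tfpi was not tested. Of 10 tested macrophage markers limma called 0. Their differences were positive for 7 and negative for 3, with a median of 0.35 and a lowest value of -0.18. For 5 of the 10 all BPH arrays were above all BPL arrays, beside 19.7% of all tested probe sets. Cd68 and Csf1r stood at 0.47 ± 0.19 and 0.32 ± 0.16 (SE, limma adjusted p = 0.205 and 0.292). Of the 5 platelet and megakaryocyte markers with a probe set, 0 were bright enough to be tested. Pf4, a platelet chemokine, had 487, 332 and 383 in BPH, against 524, 269 and 619 in BPL. Among 4 tested smooth muscle markers 1 was called, Tagln at 0.93 ± 0.19 (SE, limma adjusted p = 0.0345), and the other lists of cell markers, of fibroblasts, Schwann cells and fat, had 0 calls by limma.

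**Figure D3:**
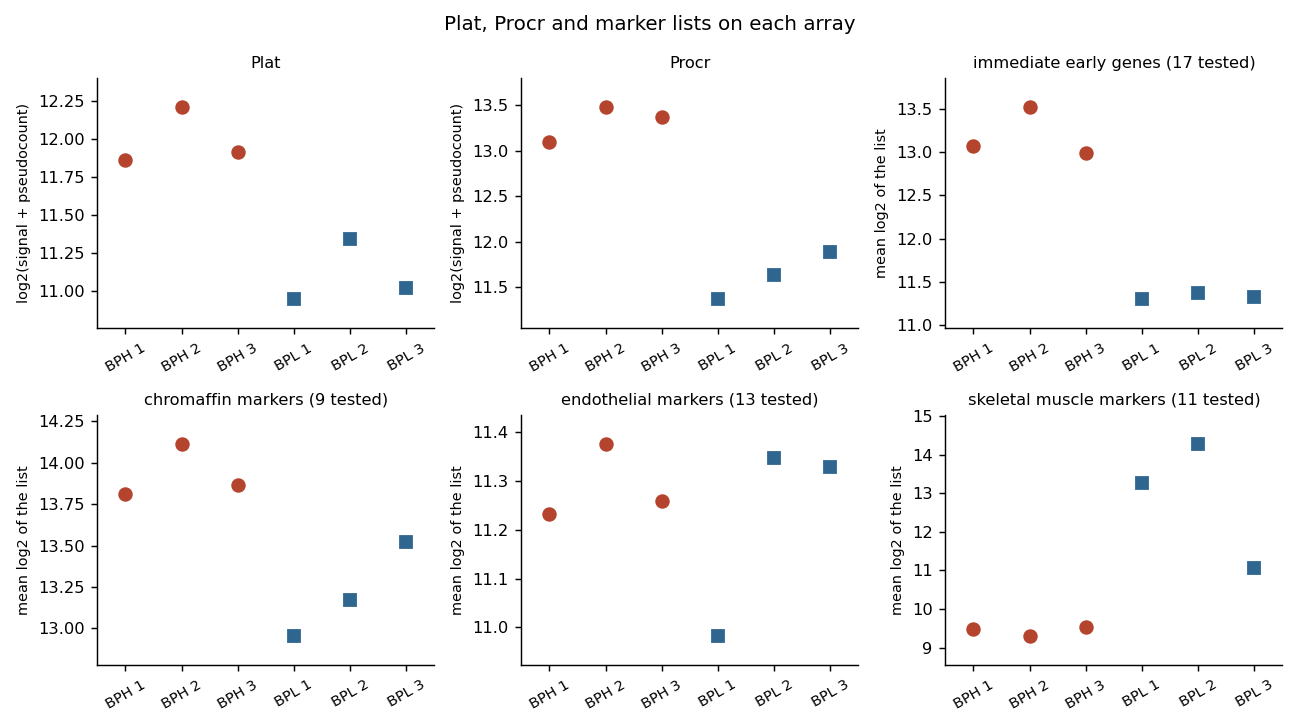
Log2 levels of Plat and Procr and mean log2 levels of 4 marker lists on each array, BPH replicates 1 to 3 (circles) left of BPL replicates 1 to 3 (squares). The vertical axes are log2 scales that differ between panels and do not start at 0. The immediate early list separates the strains (12.98 to 13.52 in BPH, 11.30 to 11.38 in BPL), the endothelial list does not, and the skeletal muscle list is highest in BPL replicates 1 and 2.

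Of 17 tested immediate early genes, which include AP-1 subunits, 13 were called higher and 0 lower, with a median of 1.94. Among the subunits, Fos stood at 3.47 ± 0.35, Fosb at 1.84 ± 0.24 and Junb at 3.41 ± 0.23 (SE, limma adjusted p = 0.00131, 0.00441 and 0.000163). Jun, Jund and Fosl2 were not called, at 0.47 ± 0.28, 0.35 ± 0.24 and -0.43 ± 0.21 (SE, limma adjusted p = 0.370, 0.439 and 0.287), and Fosl1 was too dim to be tested. Of the genes whose windows above hold the AP-1 motif, Procr was called, F3 and F2r were tested and not called, and Plaur was not tested. Whether the motif bears on any of these values was not tested.

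Skeletal muscle transcripts were high in BPL. The mean log2 level of 11 tested muscle markers was 9.49, 9.30 and 9.52 in BPH, against 13.28, 14.28 and 11.08 in BPL, and 7 were called lower. Acta1, the actin of skeletal muscle, had signals of 376, 125 and 239 in BPH, against 48471, 96330.0 and 12156 in BPL. The difference of Plat was 0.98 without BPL replicates 1 and 2 (limma adjusted p = 0.162) and 1.13 with the muscle level as a covariate (limma adjusted p = 0.675). That of Procr was 1.31 with the covariate (limma adjusted p = 0.563). The covariate also moved other members by over 1.5 times. Tfpi stood at 0.15, F2r 95474_at at 0.14, Thbd 104601_at at 0.12, Thbd 162023_f_at at 0.24 and F3 at -0.80 with it, each with a limma adjusted p of 0.999. Without BPL replicates 1 and 2, F2r 95474_at stood at 0.19, Thbd 104601_at at 0.25, Thbd 162023_f_at at 0.21 and F3 at -0.44. The covariate differs between the strains and takes up part of their difference, and limma called only 6 of the 7453 probe sets with it. RNA integrity was read from 3′ and 5′ control probe sets, as log2 of their ratio. The value was 0.084, 0.21 and 0.21 for Gapdh in BPH, against -0.033, 0.057 and -0.028 in BPL, with no overlap. For Actb it was 1.05, 0.94 and 1.25 in BPH, against 0.88, 0.79 and 0.90 in BPL, also with no overlap. An exact permutation test, 2-sided, gave p = 0.1 for each control. This is the lowest it can give with 3 arrays per strain. The part of RNA integrity in the differences was not tested.

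Over all probe sets, 306 of 7453 were called, 237 higher and 69 lower in BPH, a share of 77.5% higher. That share was 66.3% with the authors' scaling and 67.4% after quantile normalization. The median difference of all tested probe sets was 0.08 as reported and -0.02 with the authors' scaling. The members kept their order, with Plat at 0.78, Tfpi at 0.47 and Plau at -0.54 under the authors' scaling, and Plat was called there too (limma adjusted p = 0.0424).

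**Figure D4:**
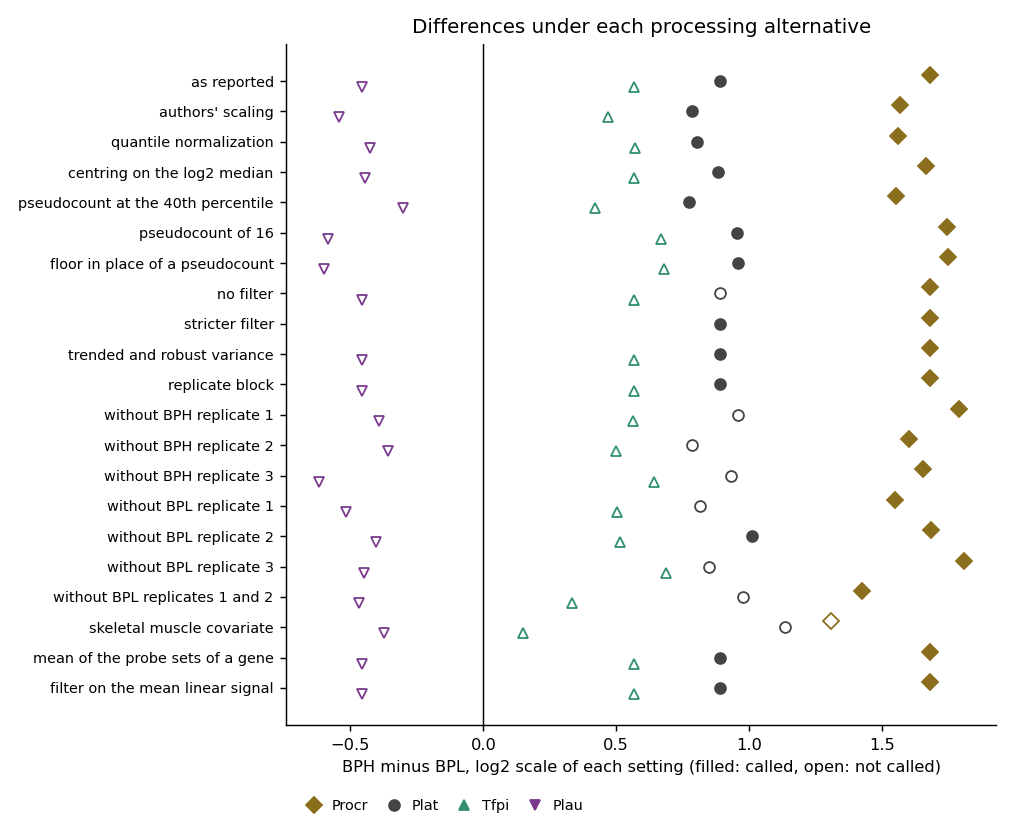
Log2 differences, BPH minus BPL, of Procr, Plat, Tfpi and Plau under each processing setting, 1 row per setting. Filled symbols were called and open symbols were not. Plat lay between 0.77 and 1.13 and was called in 12 of 20 alternatives, Procr lay between 1.31 and 1.81 and was called in 19 of 20, and the stricter limit on dim probe sets left Tfpi and Plau untested.

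The genes that followed the Plat pattern most closely over the 6 arrays were Efnb2, Amotl2 and Hnrnph3. With each probe set centred on its own mean, the root mean square difference from Plat on the log2 scale was 0.082 for Efnb2, 0.089 for Amotl2 and 0.11 for Hnrnph3, out of 6628 probe sets compared, of which 71 came within 0.2. Efnb2, a ligand of Eph receptors, had signals of 2469, 2829 and 2786 in BPH, against 1154, 1632 and 1260.5 in BPL.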

How the data were processed

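Adrenal RNA of 3 BPH and 3 BPL mice was measured, 1 array per sample. The deposited values are linear signal intensities, 1 per probe set and array, made by the authors with MAS5 per the submitters' processing notes. Its version and settings, and a genome build for the array, are not given in these sources. With 2% trimmed from both ends, array means were 2501.34 to 2501.53. Medians ran from 945.1 to 1144, so arrays were scaled to a common median of 1039.5. No detection calls were used.

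Of 12488 probe sets, 66 controls were left out. The annotation gave 1 symbol for 10833, several for 396 and none for 1193. Values were log2(signal + 203), 203 being the 20th percentile of all signals, so fold changes of dim genes are understated. Probe sets in the lowest 40% by mean log2 value over the 6 arrays were not tested. The log2 mean was chosen over the linear mean after call counts under both had been seen, to match an earlier processing of these data. limma 3.58.1 (R 4.3.3), with lmFit and eBayes (4 residual and 4.50 prior degrees of freedom), compared the strains 2-sided. The model was tested on simulated data. The number of arrays limits the precision. Members and lists were chosen with earlier results of these data known. Named genes were the 8 members, up to 3 called genes of each pathway list, a fixed set of pathway and marker genes, and the 3 genes nearest to each called member. Timp3, Ggcx, Vkorc1, F7, F2rl2, F2rl3, Pros1, Gas6, Fga, Alb and Tagln were named after their values were seen. The same holds for further AP-1, endothelial, cortical, chromaffin, liver, fat and dim pathway genes. No pair of arrays shared more than 1 identical value. Alternatives were other scalings, pseudocounts, limits on dim probe sets and variance models, a replicate block, arrays left out, a muscle covariate and averaged probe sets.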

Additional observations from a re-analysis of the deposited data

How the results depend on the processing

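None of the member probe sets other than Plat was called in any alternative in which it was tested, and each kept its direction except Thbd 162023_f_at, which ranged from -0.075 (without BPH replicate 2) to 0.31 (without BPH replicate 1) with 1 array left out. With no limit on dim probe sets, 127 probe sets were called (106 higher, 21 lower in BPH) and 0 were members, Plat having a limma adjusted p of 0.0803. Without BPL replicates 1 and 2, where the lone BPL array is assumed to vary like the others, 92 were called (73 higher, 19 lower) and 0 were members. With the muscle covariate 6 were called, 6 higher and 0 lower, with 385 at an unadjusted p under 0.05 in limma, and 0 members and 0 pathway genes. A limit on the mean linear signal, added after seeing the data, gave 294 calls (230 higher, 64 lower), left F3 untested and changed no call of a member or of Procr. Leaving out each array in turn gave 112 to 372 calls (92 to 279 higher, 20 to 93 lower), 0 to 1 members higher, 0 lower, and 1 pathway gene. The replicate block gave 239 calls, 172 higher and 67 lower, and changed no call of a member or of Procr. The strains share replicate numbers. Same-numbered arrays deviated from their group means with correlations of -0.058, -0.054 and -0.18, and no array correlated best with its own number. Deviations from a mean of so few arrays are tied to each other, so these correlations cannot decide whether the numbers pair the samples. The cause of the changes was not tested. Dim members such as Plaur, F3 and Plau are limited by their low signal.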

Other observations

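Of the 4969 probe sets too dim to be tested, 585 (11.8%) had groups that did not overlap, 197 (3.96%) higher and 388 (7.81%) lower in BPH. Among the 42 such probe sets of the pathway lists the count was 7, with 2 higher and 5 lower, and these are named because of their values. F5, the cofactor of factor Xa, had signals of 82.2, 77.8 and 81.0 in BPH, against 204, 400.4 and 336 in BPL. F10, the precursor of factor Xa, had 52.5, 18.2 and 124 in BPH, against 251, 441 and 321 in BPL on 1 probe set, and 102, 39.97 and 139 in BPH, against 214, 575 and 222 in BPL on the other. The dimmer of the F7 probe sets had 370.04, 193 and 406 in BPH, against 537, 514 and 519 in BPL, while the brighter one had overlapping groups. Mmp2 is a matrix protease, and its dimmer probe set had 80.2, 29.4 and 46.3 in BPH, against 85.2, 158 and 88.4 in BPL. The brighter Mmp2 probe set, also untested, had overlapping groups, at 513, 284 and 504 in BPH, against 658, 680 and 508 in BPL. Those higher in BPH were Entpd1, an enzyme that breaks down extracellular ATP and ADP, and Hs3st1, an enzyme of anticoagulant heparan sulfate. Entpd1 had 294, 478 and 254 in BPH, against 96.3, 200.3 and 53.4 in BPL, and Hs3st1 had 262, 187 and 176 in BPH, against 57.1, 88.6 and 45.7 in BPL. The BPH signals of F5, F10 and the dimmer Mmp2 probe set all lie under the pseudocount of 203. So do all BPL signals of Entpd1 and Hs3st1.

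Of 6 tested fat markers, 3 had positive and 3 negative differences, with a median of -0.16, and limma called 0. Retn, resistin, stood at 0.99 ± 0.25 with all BPH arrays above all BPL arrays, and Ucp1, a marker of brown fat, at -0.84 ± 0.24 with all BPH arrays below all BPL arrays (SE, limma adjusted p = 0.0687 and 0.0967).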
